A study of Homo sapiens with 11 samples.

Results

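HEC50B is an established endometrial carcinoma cell line whose parental form carries R183W, a substitution in PPP2R1A, and in an isogenic form CRISPR restored the wild-type allele (WT). The comparison described is between the transcriptomes of the 2 forms without drug, across all genes. The members were the 6 libraries labelled R183W vehicle or WT vehicle, 3 of each, out of 11 in the series. The cells of these 6 libraries had received vehicle for 4 days. The other 5 libraries came from the same 2 forms after 4 days in 50 µM WM1119, an inhibitor of the histone acetyltransferase KAT6A: 2 from R183W cells and 3 from WT cells. They share no library with the vehicle comparison. Apart from the PPP2R1A allele and the agent, the labels name no other change. The WT form is an edited derivative and the R183W form is the parental line, so an effect of the allele and an effect of editing, cloning or later passage cannot be told apart here. The sources used here do not give the number of WT clones.

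Protein phosphatase 2A (PP2A) removes phosphate from serine and threonine residues of a very large range of proteins. The enzyme is a trimer: a scaffold (PPP2R1A or PPP2R1B) holds a catalytic subunit (PPP2CA or PPP2CB) and 1 of many regulatory B subunits, which choose the substrates. The substituted residue lies in the part of the scaffold that touches B subunits, and scaffold mutations of this kind recur in serous and other high-grade cancers of the uterus. PP2A is known as a brake on growth factor signalling through AKT, ERK and MYC, and it also acts on cell cycle, Hippo and inflammatory signalling.

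A gene's level is its CPM, the count relative to the TMM-scaled library total, and differences are log2 of R183W over WT from edgeR's quasi-likelihood fit, so that a negative value means lower in R183W cells. A gene is called changed where its adjusted p (Benjamini-Hochberg over the 13980 genes tested) is under 0.05. The 6 vehicle libraries held 4545499 to 6065149 counts, at which 3 counts, the limit allowed by a count of 0, correspond to 0.495 to 0.669 CPM per library. The replicates carry numbers in the labels, without a statement that they were separate cultures. The p-values therefore reflect the spread among these libraries, which may be technical only. Within each vehicle group the log2 CPM values of library pairs correlated across genes at 0.951 to 0.970, and no pair agreed within counting noise. WT WM1119 library 3 stood apart (0.906 and 0.927 with its group), and because the spread of each gene was estimated over all 11 libraries it also touches the calls under vehicle. Of 12 carcinoma epithelial markers, 9 exceeded 1 CPM, led by KRT18 and PAX8, and KRT19, CDH1 and ESR1 did not in any of the 6 libraries. The summed level of the 12, mostly KRT18, was 2072 to 2370 CPM in R183W libraries and 1317 to 1677 CPM in WT. Of the 9 tested, 3 were called higher in R183W and 2 lower (33.3% and 22.2%, against 6.82% and 6.17% of all genes). EPCAM was at 37.1, 37.2 and 41 CPM in R183W libraries and 56, 59.5 and 63.6 CPM in WT. Of 12 fibroblast markers, 5 exceeded 1 CPM, and COL3A1, DCN, POSTN and PRRX1 had no count in any of the 6 libraries; the sum, mostly COL1A1, was 1237 to 1335 CPM against 968 to 1058 CPM. Of 16 immune markers 1 exceeded 1 CPM and 8 had no count, and of 12 endothelial markers 2 exceeded 1 CPM and 7 had no count. In bulk RNA, fewer cells expressing a gene and less RNA of it per cell cannot be told apart.

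R183W and WT cells differed in 1817 genes, 13.0% of those tested. R183W cells had higher levels of 954 (6.82%) and lower levels of 863 (6.17%), and the median log2 difference over all genes was -0.01. At least a 2-fold difference was found in 437 genes called higher (3.13%) and 385 called lower (2.75%). The 6 libraries did not overlap at 37.8% of genes, 19.3% with all R183W libraries higher and 18.5% with all lower. The number of calls depended on the libraries used to estimate the spread. It was 3151 on dropping the WT WM1119 library 3, of which 1816 were among the 1817, and 2929 when the 6 vehicle libraries were fitted alone. It was 965, 1035 and 1144 without R183W vehicle library 1, 2 or 3, and 968 and 1002 without WT vehicle library 2 or 3.

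PPP2R1A itself was read first. Its level was 36.5, 31 and 35.3 CPM in R183W libraries 1, 2 and 3 and 25, 24.6 and 20.1 CPM in WT libraries 1, 2 and 3, without overlap. The difference (log2 0.56, SE 0.17) passed narrowly, with an edgeR adjusted p of 0.0463, and missed the threshold when any 1 of the 6 vehicle libraries was left out (adjusted p up to 0.178). A substitution changes the coding sequence and not the count, so these levels do not check the allele.

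Among the 15 scaffold, catalytic and regulatory PP2A proteins tested, 2 were called higher (13.3%, against 6.82% of all genes) and 0 lower, with a median log2 difference of 0.09, against -0.01 over all genes. The other called member was PPME1, the methylesterase that removes the methyl group from the catalytic subunit's tail, at 129.7, 159.9 and 137 CPM in R183W libraries against 89.7, 72.4 and 72.4 CPM in WT (log2 0.86, SE 0.16, edgeR adjusted p = 0.00347). All R183W values lay above all WT values. The second scaffold PPP2R1B (log2 -0.14, edgeR adjusted p = 0.545) and the catalytic genes PPP2CA (0.34, adjusted p = 0.119) and PPP2CB (0.48, adjusted p = 0.0674) did not pass.

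Of 14 B subunits tested, 1 was called higher (7.14%) and 2 lower (14.3%, against 6.17% of all genes), with a median of -0.10. PPP2R2C, a B55-family subunit, was at 1.65, 0.428 and 1.01 CPM in R183W libraries and at 10.7, 16.8 and 12.2 CPM in WT libraries, a 12.1-fold lower level (log2 -3.60, SE 0.43, edgeR adjusted p = 0.000113). The R183W values were near the detection limit. PPP2R5A, a B56-family subunit, was higher, at 147 ± 11.3 against 97.9 ± 6.07 CPM (SD, n = 3 libraries each; log2 0.59, edgeR adjusted p = 0.00569). The striatin STRN, the B subunit that builds the STRIPAK kinase-phosphatase complex, was lower at 27.3 against 44.5 CPM (log2 -0.70, edgeR adjusted p = 0.0118), but not past the threshold without R183W library 1 or WT library 2 (adjusted p up to 0.0662). PPP2R2A, the most studied B55 subunit, had a log2 difference of -0.04 (edgeR adjusted p = 0.871).

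The genes with the largest differences among those at 5 CPM or more included INHBA and NOSTRIN, which moved in opposite directions. INHBA, which encodes the subunit of activin A, a TGF-beta family ligand, was at 0.99, 0.428 and 0.811 CPM in R183W libraries and 185, 213 and 289 CPM in WT libraries, a 289-fold difference (log2 -8.18, SE 0.34, edgeR adjusted p = 8.53e-09). NOSTRIN, an adaptor that traffics endothelial nitric oxide synthase, was the reverse: 397, 387 and 441 CPM in R183W and 21.6, 15.2 and 7.72 CPM in WT (log2 4.79, SE 0.27, adjusted p = 1.01e-07). Neither gene's groups came close to overlapping.

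Also lower in R183W cells were FLG, the skin barrier protein filaggrin (4.82 against 139.8 CPM), CLEC4E, the glycolipid receptor Mincle (6.88 against 139.9), and FBXO32, a ubiquitin ligase known from muscle atrophy (8.06 against 127). SPOCK1, a matrix proteoglycan, stood at 7.89 against 89 CPM, RIPPLY1, a T-box corepressor, at 3.52 against 69.1, and the tetraspanin TSPAN6 at 2.54 against 44.5. Higher in R183W cells were POU3F3, a neural and kidney transcription factor (49.5 against 1.88 CPM), PLCE1, phospholipase C epsilon (26.2 against 1.18), ROR2, a WNT5A receptor (24.2 against 1.69), SYT6, a synaptotagmin (25.8 against 2.52), and MUC5B, a secreted gel-forming mucin (25.9 against 2.7). Each of these was among the 20 largest called differences in its direction at 5 CPM or more, with edgeR adjusted p-values from 1.22e-08 for SPOCK1 to 3.03e-05 for ROR2.

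**Figure D1:**
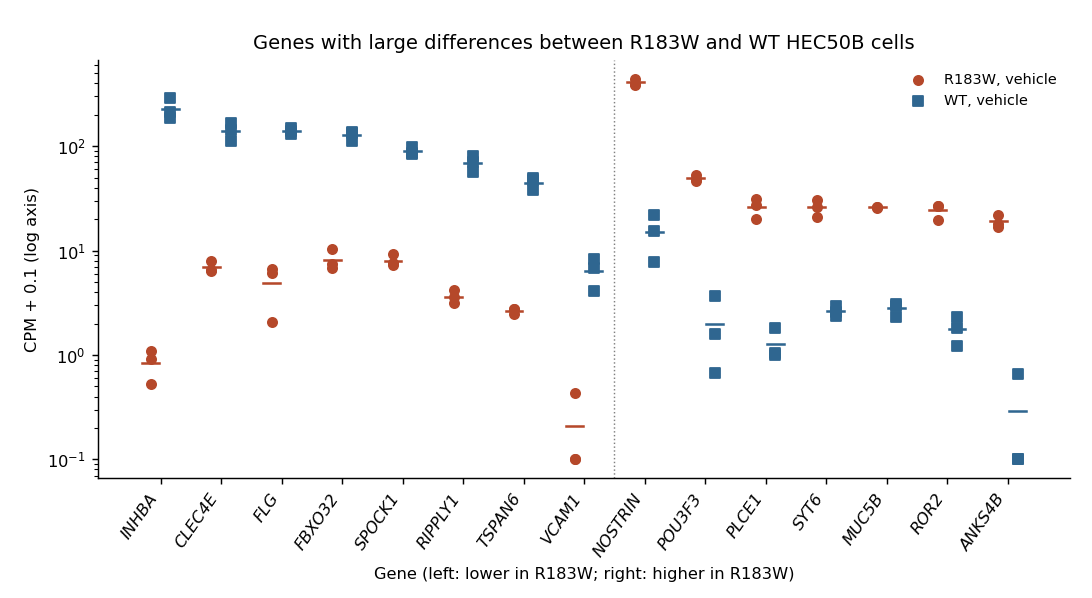
CPM + 0.1 on a log axis in each of the 6 vehicle libraries for 15 genes, R183W as red circles and WT as blue squares, with a bar at each group mean. The genes on the left are lower in R183W and those on the right higher, and in none of them do the groups overlap.

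By a rule of at most 3 counts in total in one group and at least 2 CPM on average in the other, 45 called genes were at or near 0 in one form: 22 were the ones expressed in R183W cells and 23 the ones expressed in WT cells. MYO16, an unconventional myosin, had 0 counts in R183W libraries and 8.48, 7.05 and 6.21 CPM in WT libraries, at least 37.5-fold lower when R183W is set to 3 counts over its group. SYT14, another synaptotagmin, was at least 27.4-fold lower by the same floor. In the other direction, the axon guidance receptor ligand SEMA5A (11.1, 13.1 and 10.9 CPM in R183W libraries, 0 counts in WT) was at least 58.3-fold higher, and A1CF, the cofactor of APOB mRNA editing, at least 33.3-fold higher. PRMT8, an arginine methyltransferase, had 3 counts in R183W and 298 in WT. VCAM1, a leukocyte adhesion receptor, had 2 and 97, and ANKS4B, a protein of epithelial microvilli, 294 and 3 in the same order.

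Interferon-stimulated genes were the group with the largest share of lower calls among those described here. They are switched on by type I interferon, or by cytosolic nucleic acid, through transcription factors that bind a short element in their promoters. Of 42 listed genes 30 were tested, of which 19 were lower in R183W cells and 0 higher, where 6.17% of all genes were called lower. The median log2 difference over the 30 was -1.38. The 6 libraries did not overlap at 22 of the 30 in the lower direction, against 18.5% of all genes. The 12 other members were too low to test. Over all settings tried, between 16 and 21 of the 30 were called lower.

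Several promoters of these genes carry the interferon element, and the sequences below show it. The search was for the spaced repeat at the core of that element, TTTC, any 2 bases, then TTTC, or on the other strand GAAA, any 2 bases, then GAAA, in RefSeq promoter windows from 250 bases before to 50 after the start (300 bases). A match stood in 14 of the 16 members called lower that have an entry (87.5%). It stood in 4 of the 9 with an entry that were tested and not called (44.4%). Counted by gene in the same way, it stood in 4.38% of all 27305 genes with an entry and 3.66% of the 10122 tested ones. Counted by window, the share was 3.57% of 35116. The windows of IFI44L, ISG15, IFIT1, DDX60 and IFI6, examples that all carry a match, are printed in part. The bases run from 130 before the start to 1 before it, 5′ to 3′ on the gene's strand, build GRCh38.p14. Matches are in capitals. These genes were listed as interferon-stimulated, so a share above that of all genes came with the choice of list. A match is a description of the letters and not evidence of binding in these cells.

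IFI44L, chr1:78620318-78620447, plus strand: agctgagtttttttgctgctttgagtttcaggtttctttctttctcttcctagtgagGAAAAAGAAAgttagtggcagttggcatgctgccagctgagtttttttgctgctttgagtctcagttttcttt
ISG15, chr1:1013367-1013496, plus strand: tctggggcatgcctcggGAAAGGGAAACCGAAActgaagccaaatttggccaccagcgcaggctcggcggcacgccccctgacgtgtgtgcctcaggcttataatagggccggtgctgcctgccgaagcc
IFIT1, chr10:89392493-89392622, plus strand: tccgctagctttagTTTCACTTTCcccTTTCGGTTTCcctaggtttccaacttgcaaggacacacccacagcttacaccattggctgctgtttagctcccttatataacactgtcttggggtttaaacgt
DDX60, chr4:168318753-168318882, minus strand: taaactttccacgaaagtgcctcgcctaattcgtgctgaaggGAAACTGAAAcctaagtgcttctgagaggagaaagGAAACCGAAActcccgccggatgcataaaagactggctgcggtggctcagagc
IFI6, chr1:27672193-27672322, minus strand: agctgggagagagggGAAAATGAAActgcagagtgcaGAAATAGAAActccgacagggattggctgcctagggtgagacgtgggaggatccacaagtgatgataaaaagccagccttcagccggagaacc

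The matches in ISG15 overlap each other, and those in IFIT1 stand in the other orientation. IFI44L, an antiviral feedback protein, was at 1.98, 1.71 and 3.45 CPM in R183W libraries and 31, 24.8 and 27.3 CPM in WT libraries (log2 -3.53, SE 0.29, edgeR adjusted p = 3.33e-06). ISG15, the ubiquitin-like modifier, was at 13.9, 13.1 and 15 CPM against 61.1, 35.6 and 25 CPM (log2 -1.53, SE 0.33, edgeR adjusted p = 0.00786). DDX60, a helicase that assists RNA sensing, was at 2.97, 4.92 and 4.26 CPM against 27.9, 30.1 and 30.3 CPM (log2 -2.87, edgeR adjusted p = 2.7e-06). In all of these the highest R183W library lay below the lowest WT library. IFIT1, which binds foreign RNA caps, averaged 2.5 against 10.1 CPM (log2 -1.98), and IFI6, a mitochondrial antiviral protein, 11.5 against 37.1 CPM (log2 -1.67).

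A sensor of the pathway was lower as well as its effectors. The RNA sensor IFIH1 (MDA5) averaged 5.9 against 26.5 CPM (log2 -2.17, adjusted p = 0.000128). It sits in the stretch of chromosome 2 whose genes were lower as a group, described further on, and 2 of the 19 called members of the list in all sit in such stretches. BST2, the tetherin that holds virions at the membrane, was at 0.313 against 4.46 CPM (log2 -3.69, edgeR adjusted p = 0.00569), and OASL, which had 0 counts in R183W and 60 in WT, was at least 20.8-fold lower. TNFSF10, the death ligand TRAIL, an interferon target outside the list, was at 46.5, 45.4 and 57.4 CPM against 227, 219.9 and 195 CPM (log2 -2.10, edgeR adjusted p = 1.22e-06).

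Fewer members of related immune signalling lists were called. Of 12 cytokines and chemokines tested 3 were lower (25.0%, against 6.17% of all genes) and 0 higher (median -0.65): TNFSF10, IL18 (34.4 against 90.6 CPM, log2 -1.40) and GDF15, a stress-induced ligand (1133 against 2100.4 CPM, log2 -0.89). Of 16 NF-kB targets 2 were lower (12.5%) and 0 higher (median -0.22), namely BIRC3, an apoptosis inhibitor (59.99 against 129 CPM, log2 -1.10, edgeR adjusted p = 0.000795), and NFKB1, a subunit of the factor (21.6 against 41.7 CPM, log2 -0.94, adjusted p = 0.0056). Immune cell markers summed to 4.87 to 9.07 CPM in R183W libraries and 5.65 to 12.3 CPM in WT libraries, and CD3E, CD14, LYZ and TYROBP had no count in any of the 6.

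**Figure D2:**
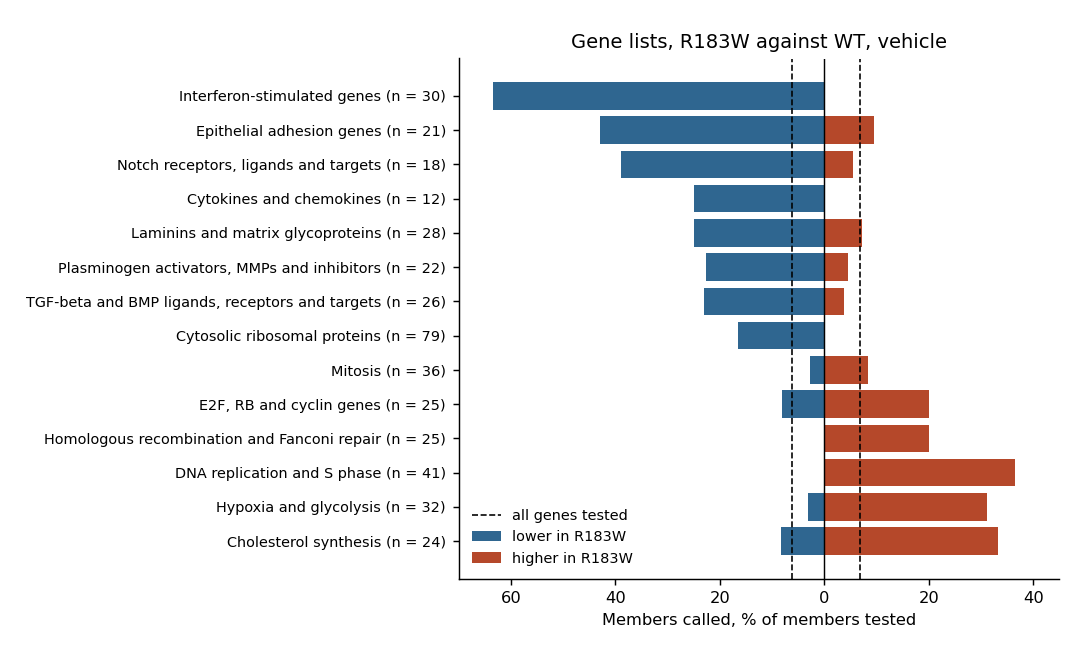
Share of the tested members of 14 gene lists called lower in R183W (blue, left) or higher (red, right), with the shares of all genes tested as dashed lines at 6.17% and 6.82%. Interferon-stimulated genes have the longest bar to the left (19 of 30) and DNA replication genes the longest to the right (15 of 41).

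Genes of Notch signalling, in which a membrane ligand on one cell activates a receptor on its neighbour and the receptor's cleaved tail switches on HES and HEY repressors, had lower members at each level of the pathway. Of 18 tested, 7 were lower (38.9%, against 6.17% of all genes) and 1 higher (5.56%, against 6.82%), with a median of -0.70 against -0.01 over all genes. JAG1, a ligand, was at 39.9, 43 and 42.4 CPM in R183W libraries and 203, 214 and 242 CPM in WT libraries, 5.26-fold lower (log2 -2.40, SE 0.14, edgeR adjusted p = 1.35e-07). The receptor NOTCH1 was at 3.13, 2.14 and 4.46 CPM against 10.9, 11.8 and 12.4 CPM (log2 -1.84, SE 0.36, edgeR adjusted p = 0.00436). The target HEY1, a repressor, was at 12, 11.6 and 7.3 CPM against 31.7, 34.9 and 36.1 CPM (log2 -1.73, edgeR adjusted p = 0.000213). No library of one form overlapped the other in these 3 genes. DTX1, a ubiquitin ligase that is itself a Notch target, averaged 5.77 against 25 CPM (log2 -2.12, adjusted p = 0.000795). The other lower members were HEY2, HES4 and NRARP. Each of them missed the threshold without at least 1 of the vehicle libraries, and over all settings tried 5 to 9 members were called lower. The 1 higher member was the receptor NOTCH4 at 3.63 against 0.758 CPM (adjusted p = 0.0484), which missed the threshold when any 1 vehicle library was left out (adjusted p up to 0.177). HEY1 lies in the stretch of chromosome 8 described further on.

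TGF-beta and BMP genes did not share a direction: of 26 tested 6 were lower (23.1%, against 6.17% of all genes) and 1 higher (3.85%, against 6.82%), with a median of -0.05. The lower members were the ligand gene INHBA, ID4, an inhibitor of helix-loop-helix factors (10.2 against 24.8 CPM, log2 -1.28, edgeR adjusted p = 0.00101), SKIL, a SMAD corepressor (47.6 against 85.5 CPM, log2 -0.85, adjusted p = 0.0018), the receptors TGFBR2 and BMPR2, and the ligand TGFB2. TGFBR3, the co-receptor betaglycan, was higher at 29.4 against 10.7 CPM (log2 1.46, adjusted p = 0.000977). The lower count fell to 3 without R183W library 1 or WT library 2, INHBA, ID4 and SKIL remaining called in every setting tried. BMPR2 lies in the stretch of chromosome 2 described further on.

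Epithelial adhesion genes were more often lower than higher in R183W cells. Tight junctions, desmosomes and their adaptors join epithelial cells. The list holds such genes and others, among them the splicing factor ESRP1 and the mucin gene MUC1. Of its 21 tested members 9 were lower (42.9%, against 6.17% of all genes) and 2 higher (9.52%, against 6.82%), with a median of -0.64. ESRP1, called lower, lies in the stretch of chromosome 8 described further on. PKP3, a desmosomal plakophilin, was at 13.5, 18 and 15.6 CPM in R183W libraries and 94.8, 91.5 and 69.8 CPM in WT libraries (log2 -2.44, SE 0.29, edgeR adjusted p = 0.000111). CLDN4, a tight junction claudin, was at 7.42, 6.21 and 5.88 CPM against 23.9, 23.3 and 32 CPM (log2 -2.01, SE 0.26, edgeR adjusted p = 0.00017). DSP, desmoplakin, which anchors desmosomes to keratin, averaged 198 against 328 CPM (log2 -0.73, adjusted p = 0.0016). These were separate in all 6 libraries. The 2 higher members were PKP2, another plakophilin (5.41 against 0.264 CPM, log2 4.21, adjusted p = 0.00218), and the membrane mucin MUC1 (13.7 against 4.57 CPM, log2 1.59, adjusted p = 0.00329).

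Of 8 keratins tested 2 were higher and 1 lower (25.0% and 12.5%, against 6.82% and 6.17% of all genes; median 0.12). The higher ones were KRT18 and KRT8, which pair in the filaments of simple epithelium. KRT18 was at 1573, 1374 and 1384 CPM in R183W libraries and 982, 889 and 743 CPM in WT libraries (log2 0.73, edgeR adjusted p = 0.00353), and KRT8 averaged 236 against 151 CPM (log2 0.64, adjusted p = 0.0024). KRT15, a keratin of basal cells, was lower at 4.12 against 12.5 CPM (log2 -1.58, edgeR adjusted p = 0.0128), a call that was lost without R183W library 2 or 3 or WT library 2. KRT7, another keratin of simple epithelium, was at 6.1, 4.28 and 7.1 CPM against 2.9, 4.38 and 2.82 CPM, with overlapping groups (adjusted p = 0.378). The mesenchymal filament gene VIM (log2 0.28, edgeR adjusted p = 0.111) and the cadherin CDH2 (log2 -0.03, adjusted p = 0.913) did not pass. Among genes of the endometrial and Müllerian lineage, 1 of 13 was higher and 1 lower (7.69% each; median 0.22). FOXA2, a regulator of endometrial glands, was at 127, 145 and 158 CPM against 41.1, 40.2 and 39.9 CPM (log2 1.82, SE 0.15, edgeR adjusted p = 3.05e-06), and WT1, a transcription factor of the mesothelium and ovary, averaged 7.24 against 21.9 CPM (log2 -1.60, adjusted p = 0.0021). PAX8, the Müllerian lineage factor, was not called (log2 0.19, adjusted p = 0.374). Of 25 HOX genes tested 3 were lower (12%, against 6.17% of all genes) and 0 higher, HOXB2, HOXB3 and HOXB4, which neighbour each other (log2 -1.76, -0.96 and -0.73, median of the 25 -0.27).

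Matrix genes held some of the largest differences. FN1, fibronectin, was at 61, 73.4 and 69.6 CPM in R183W libraries and 468, 603 and 628 CPM in WT libraries, 8.34-fold lower (log2 -3.06, SE 0.19, edgeR adjusted p = 2.66e-07). LAMA4, a laminin chain of vessel and muscle basement membrane, was at 14.7, 14.8 and 20.1 CPM against 117, 119.7 and 121 CPM (log2 -2.85, SE 0.16, edgeR adjusted p = 1.35e-07). Both were lower in each R183W library than in any WT library. In all, 7 of 28 laminins and matrix glycoproteins were lower (25.0%, against 6.17% of all genes) and 2 higher (7.14%, against 6.82%), with a median of -0.20. The higher ones were HSPG2 and TNC, tenascin C (72.5 against 31.6 CPM, log2 1.20, adjusted p = 0.00399). The higher count was 1 without R183W library 1 or 2 or WT library 3 and 4 on dropping the WT WM1119 library 3. The count of 7 was 4 without R183W library 1, 2 or 3 and 3 without WT library 2 or 3; SPOCK1, FN1 and LAMA4 were called in every setting.

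Collagens, integrins and proteases held called genes in both directions. Of 16 collagens tested 4 were lower and 2 higher (25.0% and 12.5%, against 6.17% and 6.82% of all genes; median -0.23), of 14 integrins 2 were lower and 2 higher (14.3% each; median 0.01), and of 22 plasminogen activators, metalloproteinases and inhibitors 5 were lower and 1 higher (22.7% and 4.55%; median -0.28). The collagen counts were 2 lower and 1 higher without R183W library 2 or WT library 1 or 2, with 1 higher also without R183W library 3. The lower count of proteases was 3 when any vehicle library except WT library 1 was left out, and the higher count was 3 on dropping the WT WM1119 library 3. COL6A3, a chain of the microfibrillar collagen VI, was lower at 1.19 against 11.3 CPM (log2 -3.25, edgeR adjusted p = 0.00224), and COL14A1 at 21.7 against 72.4 CPM (log2 -1.73, adjusted p = 3.69e-06). COL14A1 lies in the stretch of chromosome 8 described further on. Among integrins, which bind matrix, ITGB8 was lower (2.09 against 14.5 CPM, log2 -2.80) and ITGA1, a collagen receptor chain, higher (70.8 against 30.2 CPM, log2 1.23). The matrilysin MMP7 was lower at 2.8, 4.07 and 3.24 CPM in R183W libraries against 17.4, 28.2 and 23.5 CPM in WT (log2 -2.78, SE 0.39, edgeR adjusted p = 0.000393), while the gelatinase MMP2 was higher at 47.5, 36.2 and 41.2 CPM against 15.8, 13.5 and 8.09 CPM (log2 1.74, SE 0.27, edgeR adjusted p = 0.000954). PDGFRB, a receptor of mesenchymal cells, was lower at 3.46, 7.7 and 6.29 CPM against 29.2, 52.2 and 34.1 CPM (log2 -2.74, edgeR adjusted p = 0.000132).

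Growth factor signalling genes were called in both directions. Of 10 EGF receptor family members and ligands 2 were lower and 1 higher (20% and 10%, against 6.17% and 6.82% of all genes; median -0.01), and of 25 genes of the FGF, PDGF, VEGF, IGF and MET families 2 were lower and 3 higher (8% and 12%; median -0.19). AREG, the EGF receptor ligand amphiregulin, was at 7.59, 9.42 and 9.94 CPM in R183W libraries and 53.8, 81.6 and 94.7 CPM in WT libraries, 8.56-fold lower (log2 -3.10, SE 0.28, edgeR adjusted p = 9.16e-06). IGFBP2, a carrier of insulin-like growth factors, was at 7.26, 4.92 and 6.08 CPM against 46, 50.9 and 48.5 CPM (log2 -2.98, edgeR adjusted p = 1.56e-06). FGF9 was higher, at 9.57, 6.42 and 6.49 CPM against 1.34, 0.572 and 0.376 CPM (log2 3.30, edgeR adjusted p = 0.00278). All 3 were separate in the 6 libraries. In the EGF list, the ligands EREG (log2 -0.60, lower) and TGFA (0.94, higher) were called too. EREG was not called when any R183W library, WT library 2 or 3 or either R183W WM1119 library was left out, and TGFA without R183W library 3 or WT library 2 or 3. On dropping the WT WM1119 library 3 the FGF to MET counts were 4 lower and 7 higher, and the lower count was 4 on dropping the WT WM1119 library 1 too. Of 12 WNT targets and inhibitors 2 were higher and 1 lower (16.7% and 8.33%, against 6.82% and 6.17% of all genes; median 0.46). The secreted inhibitor SFRP1 was higher at 28.6 against 4.01 CPM (log2 2.82, adjusted p = 3.33e-06), as was TCF7L1, a repressor at WNT targets (19.98 against 7.87 CPM, log2 1.34, adjusted p = 0.00344). The lower member was DKK1, another secreted inhibitor (8.27 against 19.6 CPM, log2 -1.25, adjusted p = 0.0404), which kept its call only with WT library 1, WT WM1119 library 1 or WT WM1119 library 3 as the library left out. On dropping the WT WM1119 library 3 the WNT counts were 4 higher and 2 lower.

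Few readouts of ERK, which PP2A opposes, were called. EGR1, an immediate early transcription factor, was at 90.1, 110.2 and 101 CPM in R183W libraries and 16.7, 27.1 and 27.8 CPM in WT libraries, 4.19-fold higher (log2 2.07, SE 0.22, edgeR adjusted p = 3.21e-05), and was the 1 called member of 11 tested immediate early genes (9.09%, against 6.82% of all genes called higher; median -0.23). Of 18 ERK feedback genes 3 were lower (16.7%, against 6.17% of all genes) and 0 higher, with a median of -0.02 against -0.01 over all genes: DUSP1 (3.42 against 15.7 CPM, log2 -2.20) and DUSP5 (192 against 338 CPM, log2 -0.81), which dephosphorylate MAP kinases, and the ETS factor ETV1 (49.1 against 100.4 CPM, log2 -1.04). On dropping the WT WM1119 library 3, 2 immediate early genes were called lower and 3 feedback genes higher, and these counts were 2 and 1 on dropping the WT WM1119 library 1. Of 22 YAP/TEAD targets 3 were higher (13.6%), AXL (log2 1.03), ANKRD1 (0.82) and GADD45A (0.80), and 2 lower (9.09%; median 0.24); the higher count was 5 on dropping the WT WM1119 library 3 and the lower count 1 without R183W library 1 or WT library 2 or 3. MYC averaged 2.43 ± 0.609 CPM in R183W and 8.38 ± 3.2 CPM in WT (SD, n = 3 libraries each; edgeR adjusted p = 0.0713) and was not called, nor were CCND1 (log2 0.09), CDKN1A (0.29), JUN (0.05) and CTNNB1 (-0.58).

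A share of the DNA replication genes was higher in R183W cells without drug. They load and fire the replicative helicase, copy the strands and supply nucleotides, and are transcribed together before S phase under E2F. All 41 listed were tested, and 15 were higher and 0 lower, with a median of 0.43, where 6.82% of all genes were called higher. At 20 of them the R183W libraries all lay above the WT libraries, against 19.3% of all genes, and at 0 of them all below. MCM7, a subunit of the MCM helicase, was at 217, 155 and 145 CPM in R183W libraries and 87.9, 87.7 and 83.2 CPM in WT libraries (log2 1.00, SE 0.16, edgeR adjusted p = 0.00107). CDC6, which loads the helicase, was at 49.3, 53.9 and 42.6 CPM against 23.9, 17.9 and 25.6 CPM (log2 1.11, SE 0.19, edgeR adjusted p = 0.00164). TK1, thymidine kinase, was at 142, 117 and 112 CPM against 60.9, 47.5 and 58.3 CPM (log2 1.15, SE 0.15, edgeR adjusted p = 0.000206). In all 3 the R183W libraries lay above the WT libraries. GINS1, a subunit of the helicase's activating complex, averaged 33.1 against 14.3 CPM (log2 1.21, adjusted p = 0.00423).

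Regulators of S phase entry and genes of recombination and mitosis were read from lists of their own. Of 25 E2F, RB and cyclin genes 5 were higher (20%, against 6.82% of all genes) and 2 lower (8%, against 6.17%; median 0.29), with E2F1 at 59.3 against 27.9 CPM (log2 1.09, edgeR adjusted p = 0.00255) and CDK2, the kinase of S phase entry, at 275 against 151 CPM (log2 0.86, adjusted p = 0.00569). CDKN1C, the inhibitor p57, was lower at 17.8 against 37.3 CPM (log2 -1.07, adjusted p = 0.00102). CCNE1, cyclin E, was at 9.73 against 3.88 CPM (log2 1.32, adjusted p = 0.0158) and missed the threshold without R183W library 1 or 2 or WT library 2 (adjusted p up to 0.0749). The higher count was 3 without R183W library 1 or WT library 2, and the lower count 1 whichever vehicle library was left out and 4 on dropping the WT WM1119 library 3. Of 25 homologous recombination and Fanconi genes 5 were higher (20%) and 0 lower (median 0.28), among them BRCA2, which loads the recombinase onto DNA (112 against 59.96 CPM, log2 0.91, adjusted p = 0.0018); that count was 3 without R183W library 2 or WT library 3 and 9 on dropping the WT WM1119 library 3. Of 36 mitotic genes 3 were higher (8.33%, near the 6.82% of all genes) and 1 lower (2.78%), with a median of -0.11, the higher ones including TOP2A, the decatenating topoisomerase (2668 against 1431 CPM, log2 0.90), and AURKB, a spindle checkpoint kinase (444 against 272 CPM, log2 0.71); on dropping the WT WM1119 library 3, 5 were higher and 6 lower.

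**Figure D3:**
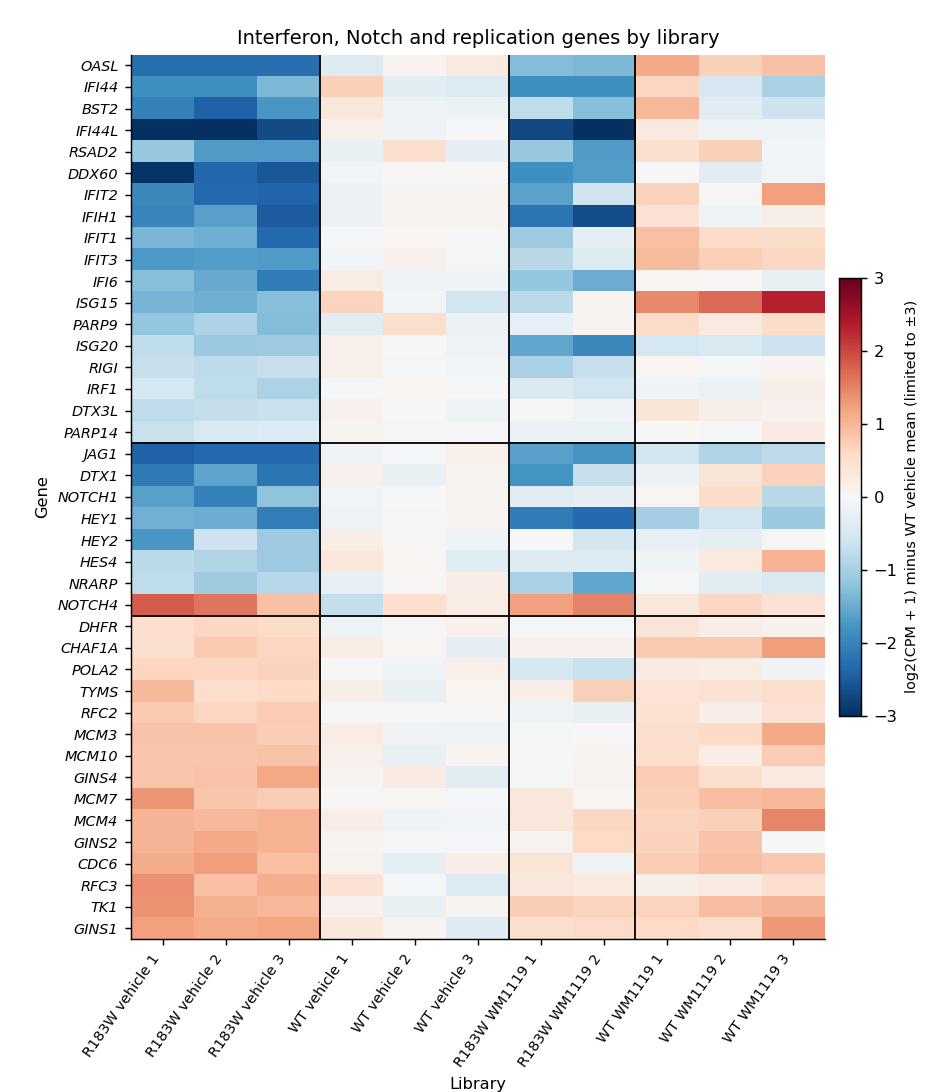
Levels of called members of the interferon (top, 18 of 19 drawn), Notch (middle) and DNA replication (bottom) lists in all 11 libraries, as log2(CPM + 1) minus the mean of the 3 WT vehicle libraries, with the colour limited to ±3. The members were chosen for their difference between the first 2 groups of 3 columns; the 5 WM1119 columns to the right were not used for that choice, and there none of the replication genes was called higher in R183W.

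Cholesterol synthesis genes were in part higher as well. These are the targets of SREBP2, the sterol-sensing factor. Of 24 tested 8 were higher (33.3%, against 6.82% of all genes) and 2 lower (8.33%, against 6.17%), with a median of 0.57. FDPS, farnesyl diphosphate synthase, was at 171, 145 and 169 CPM in R183W libraries and 73.4, 77.4 and 74 CPM in WT libraries (log2 1.11, SE 0.14, edgeR adjusted p = 0.000123). Every R183W library was above every WT library. PMVK, phosphomevalonate kinase, averaged 39.1 against 18.3 CPM (log2 1.10). The lower members were CYP51A1 and TM7SF2, neither of them called without R183W library 2. None of the called members lies in the runs of neighbouring genes described further on. Whether any lies in another shifted block, such as those of chromosome 1, is not marked here.

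Glycolytic genes were in part higher. Of 32 hypoxia and glycolysis genes 10 were higher (31.2%, against 6.82% of all genes) and 1 lower (3.12%, against 6.17%; median 0.30), and the higher count was 5 without R183W library 1 or WT library 2 or 3 and 16 on dropping the WT WM1119 library 3. The aldolases ALDOA (714, 619.8 and 634 CPM against 363, 331 and 277 CPM, log2 1.02, edgeR adjusted p = 0.00113) and ALDOC (52.1 against 19.4 CPM, log2 1.43, adjusted p = 0.00143) held their call in every setting, as did the lipase inhibitor ANGPTL4 (85.6 against 28.3 CPM, log2 1.59), the vasodilator peptide ADM (32.3 against 10.4 CPM, log2 1.65) and the 1 lower member, the glucose transporter SLC2A3 (53.2 against 89 CPM, log2 -0.74). TXNRD1, thioredoxin reductase, a target of NRF2, was lower at 84.3, 85 and 73 CPM in R183W libraries and 251, 206 and 212 CPM in WT libraries (log2 -1.47, SE 0.15, edgeR adjusted p = 2.26e-05). Its groups did not overlap. Of 27 NRF2 targets tested, 1 was higher (3.70%, against 6.82% of all genes) and 2 lower (7.41%, against 6.17%), with a median of -0.20. With WM1119, 6 of these targets were higher and 1 lower.

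Among enzymes of drug and aldehyde metabolism, 4 of 29 were higher (13.8%, against 6.82% of all genes) and 1 lower (3.45%; median 0.02). ALDH1A1, a retinal dehydrogenase, was at 18.5, 20.8 and 26 CPM in R183W libraries and 5.58, 5.34 and 7.9 CPM in WT libraries (log2 1.78, SE 0.34, edgeR adjusted p = 0.00369). CYP1B1, a cytochrome P450 that hydroxylates oestradiol, was at 42.6, 32.1 and 30.4 CPM against 123, 109 and 123 CPM (log2 -1.75, SE 0.14, edgeR adjusted p = 3.33e-06). Both were separate in all 6 libraries.

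Cytosolic ribosomal protein genes had small differences of 1 sign: 70 of 79 had a negative log2 difference (median -0.32), and 13 were called lower (16.5%, against 6.17% of all genes) and 0 higher. Many of these genes have processed pseudogenes of near-identical sequence, so their estimated counts are uncertain. How many passed depended on the libraries: 2 without R183W library 2 or 3, 3 without WT library 2 or 3, 4 without R183W library 1, 8 without R183W WM1119 library 2, and 24 and 35 on dropping the WT WM1119 library 1 or 3. RPL31 (791, 810.1 and 880.4 CPM in R183W libraries against 1374, 1572 and 1935 CPM in WT, log2 -0.98, SE 0.17, edgeR adjusted p = 0.00232) lies in the chromosome 2 stretch described next, and RPL7 and RPL30 in that of chromosome 8.

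The most abundant called genes differed by smaller factors. The long non-coding RNA MALAT1 was at 13372, 18596 and 19651 CPM in R183W libraries and 26875, 27580.2 and 28062 CPM in WT libraries (log2 -0.68, SE 0.13, edgeR adjusted p = 0.00383). PABPC1, the poly(A)-binding protein, was at 1955, 2084 and 2380.1 CPM against 4575, 4354 and 4863 CPM (log2 -1.10, SE 0.12, edgeR adjusted p = 5.18e-05). HMGN2, a nucleosome-binding protein, was at 1681, 1690.1 and 1611 CPM against 849, 827 and 722 CPM (log2 1.05, SE 0.14, edgeR adjusted p = 0.000211). HMGN2 and PABPC1 also have processed pseudogenes. The forms did not overlap in any of these 3 genes.

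KAT6A, the target of the drug used elsewhere in the series, was not called between the untreated forms: 200.5, 159 and 152 CPM in R183W libraries and 179.8, 146 and 123 CPM in WT libraries (log2 0.19, SE 0.18, edgeR adjusted p = 0.539). Of the 8 tested members of its complex 0 were called by edgeR, DESeq2 or limma-voom, and 0 had an unadjusted edgeR p under 0.05 (median log2 -0.13).

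Differences were not spread evenly over the genome. Tested genes were placed in the gene order of GENCODE 29 and cut into 271 blocks of 46 to 53 neighbours, whose median log2 differences ran from -0.67 to 0.58. Runs of at least 3 consecutive blocks with a median of 0.3 or more in size, a rule chosen after the values were seen, were found on 3 chromosomes. On chromosome 2, 8 of 19 consecutive blocks (blocks 9 to 16, 394 genes) had a median of -0.40, with 86 genes called lower and 9 higher. On chromosome 8, 4 of 10 blocks (blocks 5 to 8, 199 genes) had a median of -0.59, with 78 genes lower and 3 higher. On chromosome 16, the first 4 of 14 blocks (196 genes) had a median of 0.44, with 57 genes higher and 4 lower. Shifted blocks also lay outside these runs, as 17 in all had a median of 0.3 or more and 14 of -0.3 or less. Blocks 10 to 13 of chromosome 7 had medians of 0.298, 0.345, 0.299 and 0.387, and just missed the rule. Blocks 18 and 19 of chromosome 1 had 0.393 and 0.441, and blocks 1 and 2 of chromosome 13 had 0.317 and 0.322.

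The runs showed in every vehicle library, but they were picked from these same 6 libraries. The vehicle values in this paragraph therefore describe the runs and do not test them. Set against the mean of the other form, the median difference of the chromosome 8 run was between -0.64 and -0.46 for the 6 libraries taken singly, that of the chromosome 2 run between -0.43 and -0.28, and that of the chromosome 16 run between 0.37 and 0.55. The rest of chromosome 8 had a median of -0.06, the rest of chromosome 2 -0.15 and the rest of chromosome 16 0.26. The 789 genes in runs made up 237 of the 1817 calls (13.0%), with 30.0% of them called against 11.98% of genes outside. Above, only list members are marked as lying in a run. Genes named for a large difference or for abundance are not marked, and may lie in one too. Nor are genes marked that lie in shifted blocks outside the runs, such as those of chromosomes 1, 7 and 13. After a correction for GC content, chosen after seeing the data, the 3 medians were -0.32 for chromosome 2, -0.43 for chromosome 8 and 0.35 for chromosome 16. Whether the forms differ in DNA copy number in these stretches was not tested.

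**Figure D4:**
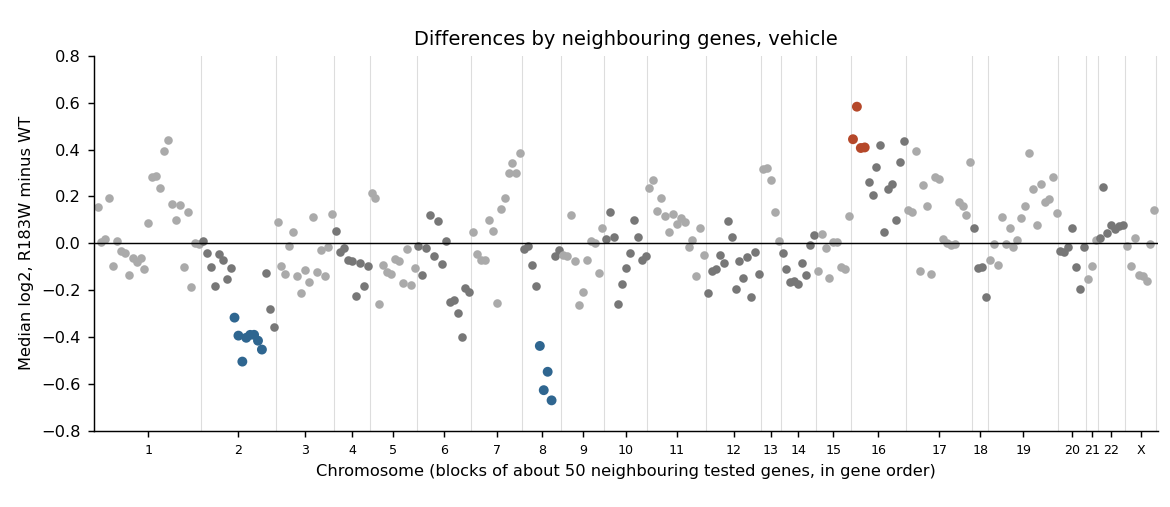
Median log2 difference (R183W minus WT, vehicle) of 271 blocks of about 50 neighbouring tested genes, in gene order along the chromosomes. The coloured points are the runs on chromosomes 2 and 8 (blue, lower in R183W) and 16 (red, higher); the largest block medians on either side are -0.67 and 0.58.

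The 5 WM1119 libraries gave a second measurement of the same difference in other libraries of the same forms, under the inhibitor. The spread of each gene was estimated over all 11 libraries, so the calls of the 2 comparisons are not fully separate. Fitted alone, the 5 WM1119 libraries gave 319 calls, and the overlap for that fit is not given here. With WM1119, 649 genes were higher in R183W (4.64%) and 548 lower (3.92%). Of the 954 genes higher under vehicle, 354 were also called higher with WM1119, 37.1% of the vehicle calls and 54.5% of the WM1119 calls, and 860 (90.1%) had the same sign. Of the 863 lower genes, 317 were also called lower (36.7% of the vehicle calls and 57.8% of the WM1119 calls), and 808 (93.6%) had the same sign. The number of WM1119 calls, 1197 in all, was 749 and 2895 on dropping the WT WM1119 library 2 or 3, and 386 and 394 without R183W WM1119 library 1 or 2. The shared calls moved with it: 147 and 154 higher genes (15.4% and 16.1% of the vehicle calls) and 137 and 149 lower genes without R183W WM1119 library 1 or 2, and 498 (52.2%) and 479 on dropping the WT WM1119 library 3. With each of the 5 WM1119 libraries left out in turn, the same-sign counts were 835 to 866 for the higher genes and 787 to 810 for the lower genes. The same-sign share over all genes tested is not given here.

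The large single-gene differences and the interferon group were there again. With WM1119, INHBA averaged 0.24 CPM in R183W and 36.6 CPM in WT, NOSTRIN 347 and 8.22 CPM, and FLG 1.93 and 250.1 CPM, in the same order. Of the 30 interferon-stimulated genes, 12 were lower and 0 higher with WM1119 (median -1.31), with IFI44L at log2 -3.38 (edgeR adjusted p = 4.66e-05). Of the 24 cholesterol genes 5 were higher and 0 lower (median 0.58). Of the 18 Notch genes 5 were lower and 1 higher (median -0.41), and of the 21 epithelial adhesion genes 5 lower and 1 higher (median -0.36). On dropping the WT WM1119 library 3 the counts were 15 lower and 2 higher of 29 tested interferon genes, and 10 higher and 1 lower cholesterol genes. For Notch genes they were 6 lower and 1 higher, and for epithelial adhesion genes 7 lower and 2 higher. Without R183W WM1119 library 1 or 2 they were 7 lower interferon, 4 higher cholesterol, 2 lower Notch and 2 lower epithelial adhesion genes. The opposite direction then had 0 in each list. The chromosome 2, 8 and 16 runs had medians of -0.32, -0.56 and 0.44.

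The DNA replication genes did not keep their direction. With WM1119 0 of 41 were higher and 6 lower, with a median of -0.55, and 32 of the 41 had a positive difference under vehicle and a negative one with WM1119. On dropping the WT WM1119 library 3 these were 15 lower, a median of -0.55 and 33 of 41. Without R183W WM1119 library 1 or 2, the edgeR count of lower members was 1 and 0, with medians of -0.53 and -0.52. It was 4 on dropping the WT WM1119 library 2. MCM7 was at 109.7 and 90.3 CPM in R183W WM1119 libraries 1 and 2 and 143, 165 and 171 CPM in WT WM1119 libraries 1, 2 and 3, a log2 difference of -0.67 (edgeR adjusted p = 0.0355). CDC6 was at 29.5 and 20.2 CPM against 38.4, 42.1 and 39.6 CPM (log2 -0.68, edgeR adjusted p = 0.0739). In both genes the WT libraries had the higher values. Over all genes 40 had a difference between forms that itself differed between vehicle and WM1119 (0.286% of genes), and 8 of these 40 were DNA replication genes. That count rested on single libraries: it was 20 without R183W vehicle library 1, 0 without library 2 or 3 (1076 and 1125 genes at an unadjusted edgeR p under 0.05), 12 and 13 without WT vehicle library 2 or 3, 2 and 1 without R183W WM1119 library 1 or 2, and 13 and 192 without WT WM1119 library 2 or 3.

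**Figure D5:**
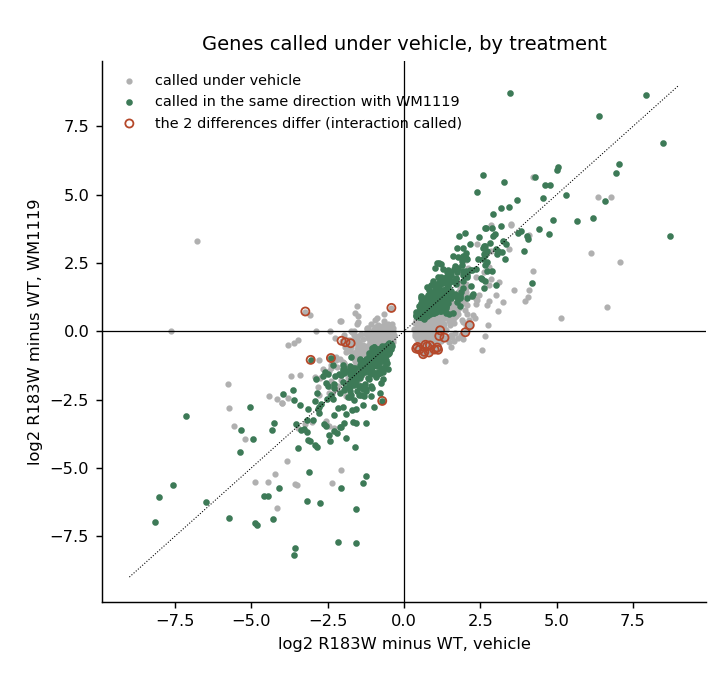
Log2 difference (R183W minus WT) with WM1119 against that under vehicle for the 1817 genes called under vehicle; green points were called in the same direction with WM1119, and red circles mark genes whose differences differed by the interaction test. Most points lie to the lower left and upper right, 860 of 954 higher and 808 of 863 lower genes having the same sign. Genes without counts in a group are drawn at their fitted values.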

How the data were processed

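Poly(A) RNA libraries of HEC50B cells, made with a ScriptSeq kit per the labels' protocols, were sequenced by the authors, who deposited 1 table of expected counts per gene (estimated counts) for 11 libraries. STAR, RSEM and hg19 are named per the submitters' processing notes, without versions or roles. The deposited values are all whole numbers, and the sources used here do not say whether they were rounded. Estimated counts share reads out between near-identical genes, so paralogs, pseudogenes and overlapping or antisense genes are uncertain.

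Of 57736 gene IDs 51959 were matched to a symbol in GENCODE 29, and the unmatched held 1.01% of counts. GENCODE 29 (another build) gave only names, gene order, chromosome and GC content. Promoters came from RefSeq, GRCh38.p14.

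edgeR 4.0.16 (R 4.3.3) tested 13980 genes after filterByExpr and TMM scaling, in 1 quasi-likelihood fit of 4 group means over all 11 libraries (biological coefficient of variation 19.6%), two-sided, called at an adjusted p under 0.05. SEs are the log2 difference over the root of F. The fit was tested on simulated data. Alternatives were RLE size factors, DESeq2 1.42.0, limma-voom 3.58.1, no filter, only the groups compared, a replicate block, each library left out, and a GC correction. Bounds set a group without counts to 3 counts over its 3 libraries, and floors cover counting error only.

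Gene lists and members were chosen with earlier results of these data known, so no list has a test of its own: lists are described by counts and medians, beside the shares of all genes. Named genes were the PP2A genes, the 20 largest differences per direction at 5 CPM or more without overlap, the 10 most abundant called per direction, up to 5 called members of each list, genes with at most 3 counts in one form, and 17 fixed genes. BMPR2, CDK2, CYP51A1, DDX60, DSP, HES4, HEY2, HSPG2, IFI6, IFIH1, IFIT1, ISG15, KRT7, MCM7, NRARP, SLC2A3 and TM7SF2, all list members, were added after their values were seen.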

Additional observations from a re-analysis of the deposited data

Results flagged for a closer look

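For 8 genes named here the R183W minus WT difference under vehicle differed from that with WM1119 by edgeR's interaction test (adjusted p under 0.05 over 13980 genes). Differences are log2, vehicle minus WM1119. In MCM7 the change was 1.67 (SE 0.24, edgeR adjusted p = 0.0148), from 1.00 under vehicle to -0.67 with WM1119. In CDC6 it was 1.79 (adjusted p = 0.023), in E2F1 1.68 (adjusted p = 0.0313) and in TK1 1.33 (adjusted p = 0.0257), all higher in R183W under vehicle and negative with WM1119. COL1A1 changed sign too, from 0.44 to -0.58 (change 1.02, edgeR adjusted p = 0.0252).

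The other 3 kept their sign and were nearer to 0 with WM1119. FN1 went from -3.06 to -1.05 (change -2.01, edgeR adjusted p = 0.0148), JAG1 from -2.40 to -0.98 (change -1.41, adjusted p = 0.0148) and CYP1B1 from -1.75 to -0.44 (change -1.31, adjusted p = 0.0201). Without R183W vehicle library 2 or 3 no gene passed this test (1076 and 1125 at an unadjusted edgeR p under 0.05). The 2 treatments share no library, but R183W WM1119 has only 2 libraries.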

How the results depend on the processing

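Depth limits genes near 0.5 CPM per library, about 3 counts. The 1817 calls under vehicle became 2929 (1509 higher, 1420 lower) with only the 2 groups compared, and ran from 965 to 3151 with single libraries left out (506 to 1655 higher, 433 to 1496 lower). A replicate block gave 1189 (627 higher, 562 lower), 678 of 1197 with WM1119 and 0 of 40 interactions (1023 at an unadjusted edgeR p under 0.05). Same-numbered vehicle libraries deviated together at 0.112, -0.0172 and 0.0810, and other-numbered ones at -0.140 to 0.0581. With so few pairs, whether the numbers pair the samples cannot be decided from these values. The 1197 WM1119 calls became 319 with only the 2 groups compared and 386 to 2895 with single libraries left out. The 40 interactions became 157 with DESeq2, 191 without a filter and 0 to 192 with single libraries left out. RLE size factors, DESeq2, limma-voom, no filter and the GC correction kept the vehicle count within 1.5 times, at 1760 to 2380, and the 45 genes near 0 in one form were 30 to 49 in all settings. Of 121 called named genes 100 were called in every alternative and all 121 kept their sign. The log2 difference of 3 uncalled genes near 0 changed sign: PPP2R2A (-0.080 to 0.037 with single libraries left out, 0.096 with GC correction), CDH2 (-0.099 to 0.030, and 0.036) and JUN (-0.016 to 0.14, and -0.073). The causes were not tested.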
